A study of Mus musculus with 9 samples.

Results

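*Sox4*, *Sox5*, *Sox6*, *Sox9*, *Sox11* and *Sox21* are the 6 Sox genes of the inner ear that are described here by the open chromatin around them, apart from *Sox2*, whose locus carries the reporter used to sort the cells. A peak was counted as theirs when its summit lay nearer to a start site of one of their protein-coding transcripts than to that of any other gene, within 500 kb. This rule took 528 of 286921 peaks in 9 lists, which merged to 163 of 69393 regions (0.235%): 40 near *Sox5*, 34 near *Sox4*, 32 near *Sox9*, 31 near *Sox6*, 22 near *Sox11* and 4 near *Sox21*. The median gene with a region had 2, and 12 of 17583 genes, *Sox5* among them, had as many as *Sox5* or more.

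ATAC-seq, which reads open chromatin from the sites where a transposase can insert adapters, was run on cells sorted from the embryonic mouse cochlear duct. All cells came from heterozygous Sox2-EGFP knock-in embryos of strain B6;129S-Sox2tm2Hoch/J, in which EGFP stands in the coding region of 1 *Sox2* allele, so the EGFP-negative controls carried that allele too. Cells with the highest EGFP (Sox2-EGFP+) were sorted at embryonic days E12, E14.5 and E16, with 2 samples each, and cells without EGFP (Sox2-EGFP-) at E14.5, with 1 sample, and at E16, with 2. Each Sox2-EGFP+ replicate was 1 litter of pooled ducts, cells of low EGFP were left out of both gates, cochlear nerve tissue with its glia and most mesenchyme had been dissected away, and Sox2-EGFP- cells are whatever else the dissected duct held, not 1 cell type.

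Lists held 7577 to 66332 peaks, and the 2 longest were E14.5 Sox2-EGFP+ replicate 1 and E16 Sox2-EGFP+ replicate 2. Groups follow the sample titles, and the separate cell type tag names the other cells for 3 of the 4 E16 samples (Sox2-EGFP+ replicate 2 and both Sox2-EGFP-). Beside that conflict, markers of the labelled cells were counted among the 20000 highest peaks of each E14.5 and E16 list. The 10 prosensory genes had 34 to 43 peaks in the 4 Sox2-EGFP+ lists and 22 to 25 in the 3 Sox2-EGFP- lists, the 4 epithelial genes 13 to 16 and 6 to 7, the 7 otic mesenchyme genes 2 to 6 and 13 to 19, and the 4 endothelial genes 1 to 4 and 5 to 7. Cartilage (8 to 10 and 7 to 12), glia (2 to 5 and 2 to 3), macrophage (0 to 1 and 1 in each) and hair cell genes (3 to 7 and 2 to 3) overlapped between the cell types. The part of these cell types in the differences below was not tested, and in sorted bulk samples fewer cells of a type cannot be told apart from less open chromatin per cell.

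Sox proteins bind DNA through an HMG box, and are grouped by sequence. Sox21 belongs to the SoxB2 group and Sox4 and Sox11 to the SoxC group, which act in progenitors of many tissues. Sox5 and Sox6 are SoxD proteins, which lack a transactivation domain and often work beside SoxE proteins such as Sox9, as in cartilage. Sox9 is needed for the otic placode to form a vesicle, and Sox4, Sox11 and Sox21 are known from the sensory regions of the cochlea.

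The sequences shown first are the summits of the distal regions that the results turn on, with at least 1 for each gene, and the *Sox21* promoter. They are mm9 sequence, 100 bp to each side of the summit unless an exon was close. Capitals mark short words searched on both strands, each a core that factors of 1 family are known to bind. They were ACAAAG and its variant ACAATG for SOX, AGATAA for GATA factors, GGAATG for TEAD, AACCNGTT for GRHL and CCCNNGGG for EBF, and the motifs of CTCF and RFX. All are given on the plus strand except the *Sox21* promoter, which is on the minus strand of its gene.
*Sox9*, intergenic, 70.4 kb upstream, in every Sox2-EGFP+ list and no Sox2-EGFP- list, chr11:112573074-112573274: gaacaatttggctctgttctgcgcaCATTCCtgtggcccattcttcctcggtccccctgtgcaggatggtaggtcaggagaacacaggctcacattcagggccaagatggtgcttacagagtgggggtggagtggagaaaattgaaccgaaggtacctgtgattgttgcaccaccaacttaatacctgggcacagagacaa
*Sox5*, intron, 5.59 kb downstream of a start site, in every Sox2-EGFP+ list and no Sox2-EGFP- list, chr6:143889957-143890157: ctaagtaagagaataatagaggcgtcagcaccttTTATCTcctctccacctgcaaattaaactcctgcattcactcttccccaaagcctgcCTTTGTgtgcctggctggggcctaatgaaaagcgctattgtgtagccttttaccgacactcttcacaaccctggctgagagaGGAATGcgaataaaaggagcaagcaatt
*Sox5*, intron, 110 kb from the nearest start site, in all 9 samples, chr6:144005357-144005557: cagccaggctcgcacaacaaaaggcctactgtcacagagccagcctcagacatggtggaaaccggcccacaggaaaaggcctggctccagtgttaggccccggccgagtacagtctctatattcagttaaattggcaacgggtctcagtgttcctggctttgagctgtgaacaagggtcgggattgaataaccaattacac
*Sox6*, intron, 209 kb downstream of a start site, in 5 Sox2-EGFP+ samples, chr7:122759248-122759448: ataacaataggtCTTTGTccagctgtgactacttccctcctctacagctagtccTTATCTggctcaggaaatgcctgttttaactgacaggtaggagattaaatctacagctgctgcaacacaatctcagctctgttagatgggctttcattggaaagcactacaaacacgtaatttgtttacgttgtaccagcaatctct
*Sox4*, intergenic, 321 kb downstream, in all 9 samples, chr13:28721642-28721842: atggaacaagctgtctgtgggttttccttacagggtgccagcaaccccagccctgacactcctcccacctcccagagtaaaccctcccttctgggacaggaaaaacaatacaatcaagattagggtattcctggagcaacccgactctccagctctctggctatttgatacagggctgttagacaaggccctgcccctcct
*Sox11*, intergenic, 262 kb upstream, in all 3 Sox2-EGFP- and no Sox2-EGFP+ samples, chr12:28289332-28289532: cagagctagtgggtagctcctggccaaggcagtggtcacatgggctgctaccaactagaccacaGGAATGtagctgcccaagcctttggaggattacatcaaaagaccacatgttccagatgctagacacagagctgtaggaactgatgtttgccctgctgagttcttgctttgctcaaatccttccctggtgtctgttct
*Sox21*, intergenic, 4.93 kb downstream, in 3 Sox2-EGFP+ samples, chr14:118630275-118630475: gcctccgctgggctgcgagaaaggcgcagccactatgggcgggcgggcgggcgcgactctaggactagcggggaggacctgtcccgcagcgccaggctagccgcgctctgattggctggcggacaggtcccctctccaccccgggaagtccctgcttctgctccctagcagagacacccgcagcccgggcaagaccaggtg
*Sox21*, 120 bases up to its outermost start site, in all 9 samples, chr14:118636253-118636372: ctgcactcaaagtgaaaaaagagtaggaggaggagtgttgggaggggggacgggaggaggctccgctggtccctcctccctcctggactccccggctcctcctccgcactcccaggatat
The *Sox9* sequence holds a TEAD word, that of the *Sox5* region near its start site a SOX, a GATA and a TEAD word, and that of *Sox6* a SOX and a GATA word. The 120 bases of the *Sox21* promoter and the *Sox4* sequence hold none of the words. A match is a description of the letters and not of binding.

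Regions near the 6 genes lay far from start sites and were found mostly in Sox2-EGFP+ cells alone. Of the 163 summits, 8 lay in a promoter, here the 1000 bp before and the 100 bp after a start site. The others comprised 115 intergenic summits, 37 in an intron of the gene itself (21 for *Sox6* and 16 for *Sox5*), 2 in a coding exon and 1 in an untranslated exon. The median distance to the start site was 123 kb against 18.2 kb over all regions, and 90 (55.2%) lay over 100 kb away against 15.5% of all regions. Room for distal regions differed between the genes. The nearest start sites of other protein-coding genes lay 521 kb and 809 kb from *Sox4* and 780 kb and 823 kb from *Sox5*, but 30.1 kb and 99.0 kb from *Sox21*, and per megabase of sequence nearest to them *Sox21* had 61.1 regions, *Sox9* 56.3, *Sox4* 50.9, *Sox6* 45.2, *Sox5* 37.6 and *Sox11* 37.2. The farthest region taken, near *Sox11*, was 454 kb from its start site, and its peaks ranked at 17.9%, 34.6% and 70.5% of their lists. The first region past the limit, also nearest *Sox11* at 504.8 kb, ranked at 88.7% and 99.0%.

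**Figure D1:**
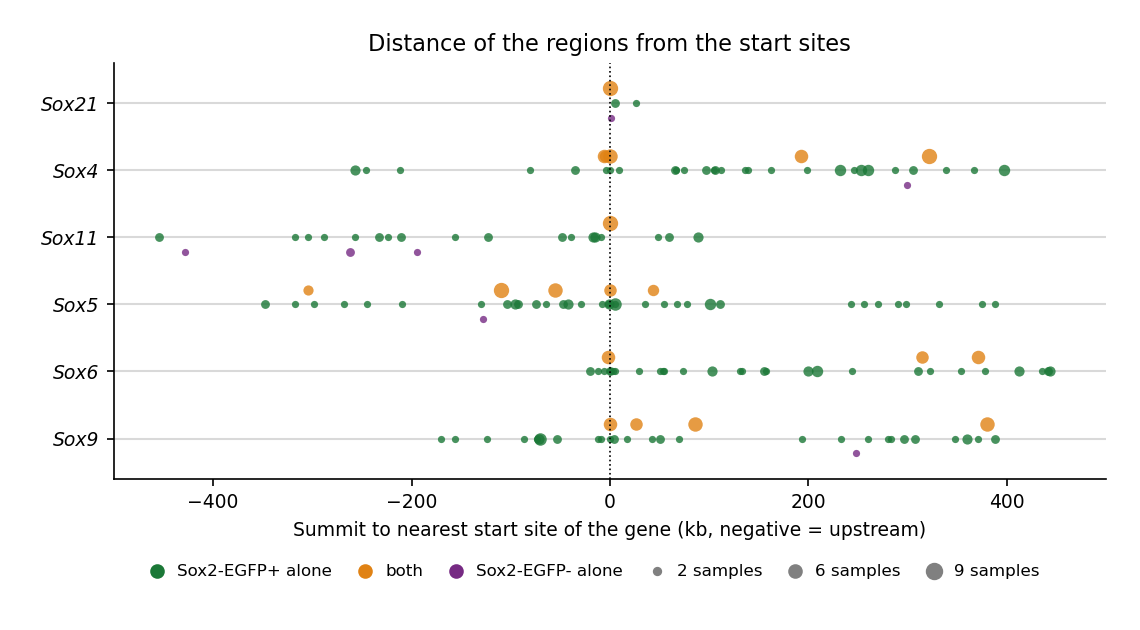
Distance in kb from the summit of each region to the nearest start site of its gene (x axis, negative is upstream), by gene (y axis). Colour gives the samples with a peak (Sox2-EGFP+ alone, both, Sox2-EGFP- alone) and point area the number of samples; regions of *Sox4*, *Sox5*, *Sox6*, *Sox9* and *Sox11* reach 388 to 454 kb, and those of *Sox21* 26.3 kb.

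By cell type, 137 of the 163 regions (84.0%) had peaks in Sox2-EGFP+ samples alone, 19 in both and 7 (4.29%) in Sox2-EGFP- samples alone. Over all regions, 64.9% were in Sox2-EGFP+ samples alone and 5.68% in Sox2-EGFP- samples alone. Distance moved with this share: among the 154 regions that overlapped no promoter 134 (87.0%) were in Sox2-EGFP+ alone against 78.6% of all such regions. List length moved with it too: of the 156 regions with a Sox2-EGFP+ peak, 81 (51.9%) were listed in the 2 longest lists and no other Sox2-EGFP+ list, against 38.4% of all Sox2-EGFP+ regions.

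In lists of equal length regions of Sox2-EGFP+ cells alone were again the most frequent. Among the 20000 highest peaks of each E14.5 and E16 list, the 6 genes had 63 regions, of which 39 (61.9%) were in Sox2-EGFP+ samples alone and 10 (15.9%) in Sox2-EGFP- samples alone. The same shares over all regions of these peaks were 33.4% and 18.2%. Distance moved with these shares here as well. Of the 55 member regions that overlapped no promoter, 67.3% were in Sox2-EGFP+ alone, against 49.6% of all such regions. In Sox2-EGFP- alone the shares were 18.2% and 26.2%. With 4 Sox2-EGFP+ and 3 Sox2-EGFP- lists, a peak in Sox2-EGFP+ cells had more chances to be listed. Of the 63 regions *Sox6* had none in Sox2-EGFP- cells alone, 8 in Sox2-EGFP+ alone and 3 in both. *Sox9* had 3, 7 and 3, and *Sox11* had 2, 6 and 1. With all listed peaks, *Sox6* had 0, 28 and 3, *Sox9* 1, 27 and 4, and *Sox11* 3, 18 and 1, the last its promoter.

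**Figure D2:**
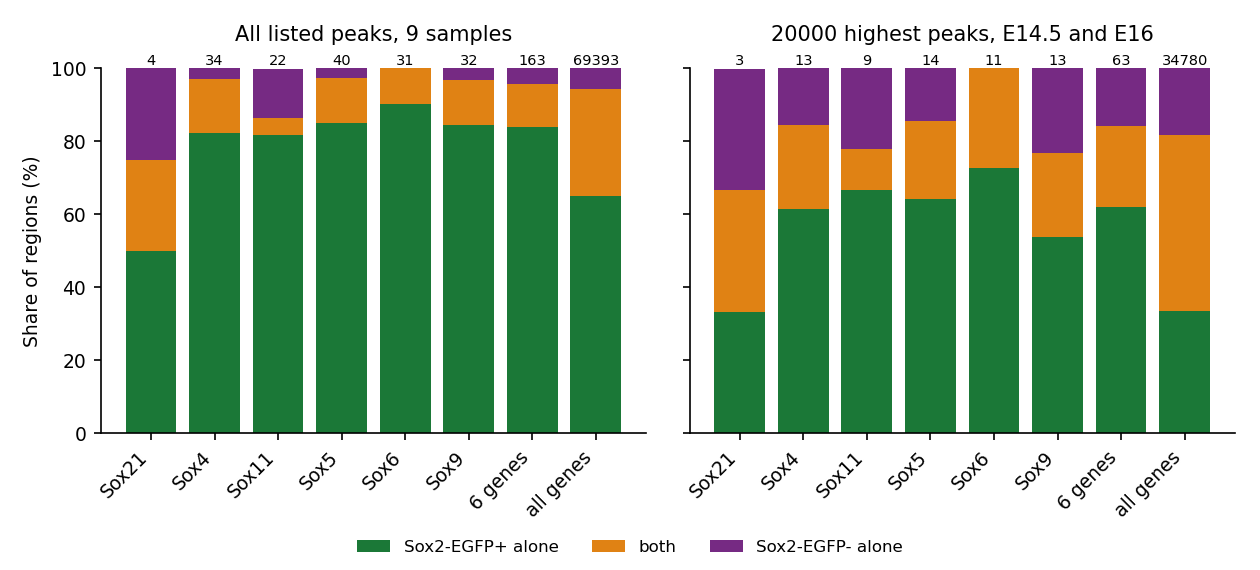
Share of regions in percent (y axis) with peaks in Sox2-EGFP+ samples alone, both cell types or Sox2-EGFP- samples alone, for each gene, the 6 genes and all genes (x axis, number of regions above each bar). The left panel takes all listed peaks of 9 samples and the right panel the 20000 highest of the 7 E14.5 and E16 samples; Sox2-EGFP+ alone makes up 84.0% and 61.9% for the 6 genes, and 64.9% and 33.4% for all genes.

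**Figure D3:**
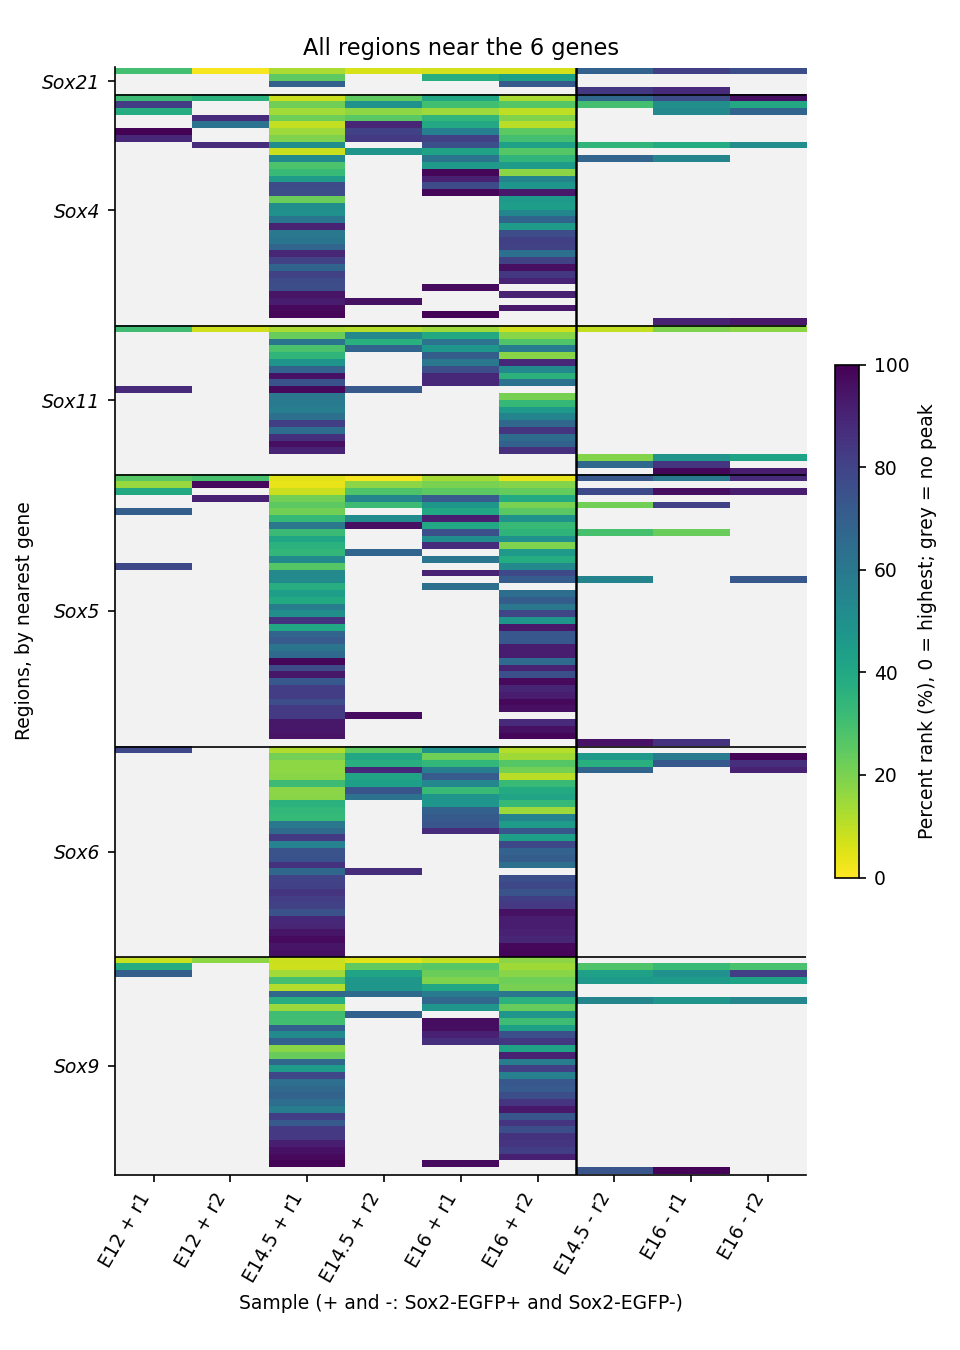
Percent rank of every region (rows, grouped by nearest gene) in each sample (columns, r1 and r2 are replicates), from 0 for the highest −log10 p of a list to 100, with grey for no peak. Most rows are filled in E14.5 Sox2-EGFP+ replicate 1 and E16 Sox2-EGFP+ replicate 2, the 2 longest lists, and few of the 163 rows in E12 or Sox2-EGFP- samples.

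Strength is given as percent rank, the place of a peak by −log10 p in its own list as a percent of the list's length, so that 1% is near the top. Since a peak of given place has a lower percent in a longer list, and the Sox2-EGFP+ lists at E14.5 and E16 were mostly the longer ones, place in the list is given too where it changes a comparison. In means, a promoter without a peak counted as 100%.

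*Sox21*, of the SoxB2 group, had the widest gap between the cell types among the promoters with a peak in both. Its promoter region (chr14:118635414-118636742), which the antisense noncoding gene Gm4675 overlaps, had a peak in all 9 samples. It ranked at 29.8% and 1.40% in E12 replicates 1 and 2, at 12.7% and 6.24% at E14.5 and at 6.73% and 6.48% at E16 in Sox2-EGFP+ cells. In Sox2-EGFP- cells it ranked at 68.5% at E14.5 and at 81.0% and 75.9% at E16. Every Sox2-EGFP+ sample stood above every Sox2-EGFP- sample, in E14.5 alone, where titles and tags name the same cells, and within each sequencing batch too (6.73% and 81.0% in batch 1).

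By place in the list, the *Sox21* promoter was peak 1433 to 8452 in the 4 Sox2-EGFP+ samples of both later stages and peak 15971 to 19315 in the 3 Sox2-EGFP- samples, so the groups did not overlap by either measure. Its fold enrichment over the local background of MACS2 was 5.40 to 7.72 and 3.64 to 4.26. The difference of the mean percent rank was -67.1 (8.05 ± 3.13, SD, n = 4, against 75.1 ± 6.26, n = 3), with an exact permutation p of 0.0286, the smallest that 35 ways to divide 7 samples can give, and 0.296 after Benjamini-Hochberg adjustment over 14276 genes.

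Around *Sox21* itself there was little else: 3 further regions, at 26.3 kb, 4.93 kb and 1.27 kb downstream. The first 2 were in Sox2-EGFP+ samples alone, at 69.2% and 72.2%, and at 24.7%, 36.9% and 43.1%. The last, in the coding exon, was in Sox2-EGFP- samples alone, at 83.8% and 87.8%.

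**Figure D4:**
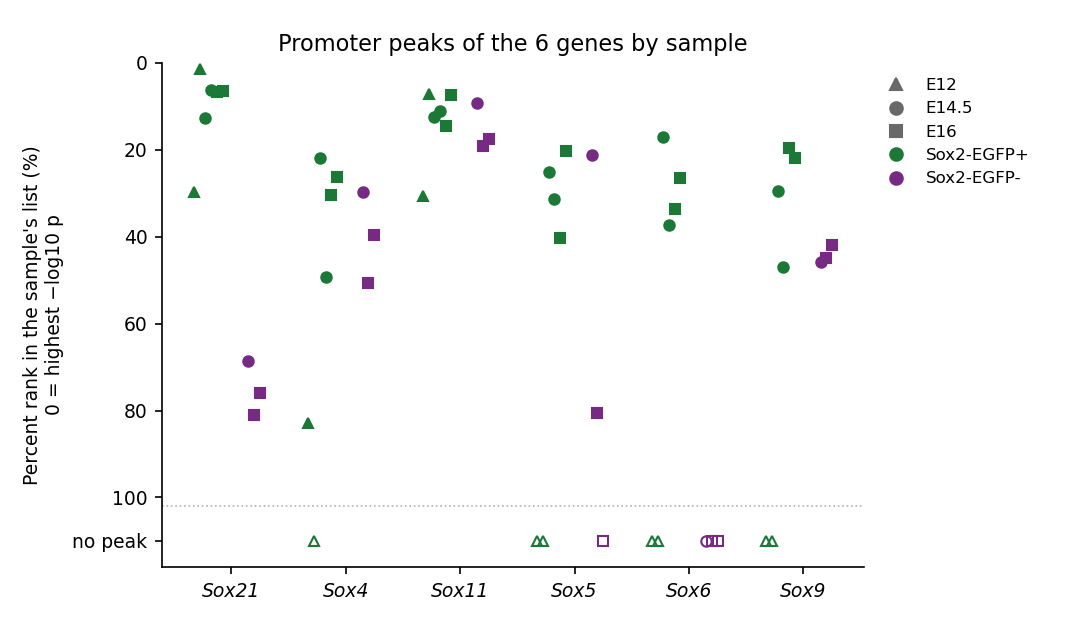
Percent rank of the best peak that overlaps a promoter of each gene (x axis) in each of 9 samples, with 0% at the top (y axis); green points are Sox2-EGFP+, purple Sox2-EGFP-, shapes give the stage, and open points under the dotted line have no promoter peak. *Sox21* separates into 1.40% to 29.8% and 68.5% to 81.0%, while *Sox11* lies between 7.06% and 30.6% in all 9 samples.

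The SoxC genes differed from *Sox21* in that their promoters did not separate the cell types. The *Sox11* promoter (chr12:28026744-28028827) was among the higher peaks in every list. It ranked at 30.6% and 7.06% at E12, 12.5% and 11.0% at E14.5 and 14.6% and 7.37% at E16 in Sox2-EGFP+ cells, and at 9.18%, 19.2% and 17.4% in the E14.5 and the 2 E16 samples of Sox2-EGFP- cells. The later groups overlapped, with means of 11.4 ± 3.06 (SD, n = 4) and 15.2 ± 5.33 (n = 3) and an exact permutation p of 0.257 (adjusted 0.585). By place they overlapped too, at peaks 8324, 2534, 5750 and 4856 against 2139, 4579 and 4148. On average the Sox2-EGFP- samples then stood higher.

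The *Sox4* promoter (chr13:29044445-29045883) stood at 82.8% in E12 replicate 1, with no peak in the shorter list of replicate 2. By place that was peak 11447, within the 11323 to 17270 of the later Sox2-EGFP+ samples. It ranked at 21.8%, 49.3%, 30.4% and 26.2% in the later Sox2-EGFP+ samples and at 29.8%, 50.7% and 39.5% in Sox2-EGFP- samples. These overlapped too (means 31.9 ± 12.1 and 40.0 ± 10.4, SD, n = 4 and 3, exact permutation p = 0.400, adjusted 0.710). By place the Sox2-EGFP- samples had peaks 6949, 12083 and 9452, which also overlapped the later Sox2-EGFP+ samples but on average stood higher.

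Differences near *Sox4* lay outside its promoter. The region 321 kb downstream (chr13:28721342-28722119) had a peak in all 9 samples, at 31.4% and 36.1% at E12, 7.89% and 24.3% at E14.5 and 40.3% and 12.7% at E16, against 66.2%, 77.1% and 96.4% in Sox2-EGFP- cells. By place the groups overlapped there, since peak 15837 of E16 Sox2-EGFP+ replicate 1 fell below peak 15433 of the E14.5 Sox2-EGFP- sample. A region 6.05 kb upstream (chr13:29051232-29051867) ranked at 38.2% in 1 E12 sample and at 9.44% to 16.9% in the 4 later Sox2-EGFP+ samples. In Sox2-EGFP- samples it was absent at E14.5 and stood at 52.9% and 67.5% at E16.

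Among regions of *Sox4* in Sox2-EGFP+ samples alone, those 260 kb, 398 kb and 257 kb away had the best mean ranks. That at 260 kb (chr13:28782381-28783173) had a peak in 5 samples, at 87.7% in E12 replicate 2 and between 18.8% and 34.3% later. In the other direction, the region 193 kb downstream (chr13:28849694-28850671) ranked at 34.5%, 38.5% and 50.9% in Sox2-EGFP- cells. In the 3 later Sox2-EGFP+ samples that had it, it ranked at 42.7%, 50.8% and 75.5%, with overlap by percent. By place these samples did not overlap, and peaks 8035 to 12154 of the Sox2-EGFP- lists stood above peaks 28128 to 33694 of the Sox2-EGFP+ lists.

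A region of Sox2-EGFP- cells lay near *Sox11*, 262 kb upstream (chr12:28289091-28289604). It was listed in each of the 3 Sox2-EGFP- samples, at 18.7% at E14.5 and 47.7% and 41.9% at E16, and in no Sox2-EGFP+ list, although 2 of those are the longest of all. It was the only region of the 163 with a peak in all 3 Sox2-EGFP- and no Sox2-EGFP+ samples. The share of such regions over all genes was not determined, so whether this is few or many is not known. Of the *Sox11* regions in Sox2-EGFP+ cells alone, the best by mean rank, 88.4 kb downstream (chr12:27938345-27939462), ranked at 23.1%, 52.9%, 39.1% and 17.9% in the 4 later samples and had no E12 peak.

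The SoxD genes held all 37 regions with a summit in an intron. A *Sox5* intron region 110 kb from the nearest start site (chr6:144004749-144006120) ranked at 25.9% and 29.2% at E12, at 4.55% and 1.55% at E14.5 and at 13.6% and 3.88% at E16. In Sox2-EGFP- cells it ranked at 72.9% at E14.5 and at 59.9% and 88.0% at E16. Peaks 357 to 5356 of the 4 later Sox2-EGFP+ lists stood above peaks 14275 to 21021 of the Sox2-EGFP- lists, so this region separated the cell types by place as well.

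A region 5.59 kb downstream of a *Sox5* start site (chr6:143889728-143890333), whose summit lies in an intron and whose ends take in a short exon, was listed in every Sox2-EGFP+ sample and in no Sox2-EGFP- sample. It ranked at 15.5% and 97.5% in E12 replicates 1 and 2, at 3.33% and 17.5% at E14.5 and at 20.3% and 18.4% at E16. Its fold enrichment reached 15.3 in E14.5 replicate 1 and was 4.22 in E12 replicate 2.

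A further *Sox5* region 54.9 kb upstream (chr6:144212616-144213591) stood at 7.90%, 27.4%, 25.2% and 23.7% in the later Sox2-EGFP+ samples and at 78.0%, 95.9% and 92.3% in Sox2-EGFP- samples, without overlap by percent or by place. The best promoter peak of *Sox5*, over 2 promoter regions, did not follow these regions. It ranked at 25.0%, 31.3%, 40.2% and 20.3% in later Sox2-EGFP+ samples and at 21.2% in the E14.5 Sox2-EGFP- sample. In the E16 Sox2-EGFP- samples it ranked at 80.5% and not at all. The groups overlapped (exact permutation p = 0.143, adjusted 0.453), and E12 had no promoter peak. Of the 2 promoter regions, chr6:144157653-144158365 had peaks in both cell types. The other (chr6:144158507-144159610) was in the 4 later Sox2-EGFP+ samples alone, at 60.3%, 95.9%, 40.2% and 32.2%.

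*Sox6* had a single region with an E12 peak, the intron region 209 kb downstream of a start site (chr7:122759077-122759765). It ranked at 78.4% in E12 replicate 1, between 11.2% and 49.1% in the 4 later Sox2-EGFP+ samples, and had no Sox2-EGFP- peak. The region 371 kb downstream (chr7:122596863-122597553) was in all 7 later samples, at 20.8%, 40.3%, 21.9% and 14.4% against 46.2%, 58.7% and 99.0%. By place it overlapped, with peak 13814 of a Sox2-EGFP+ list below peak 10770 of a Sox2-EGFP- list.

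At the outermost *Sox6* start site, peaks of Sox2-EGFP+ cells overlapped the promoter at 17.1%, 37.4%, 33.7% and 26.5%. Sox2-EGFP- cells had no peak that overlapped it, which as a missing peak at 100% gave a difference of -71.3 in the mean percent rank (exact permutation p = 0.0286, adjusted 0.296). They had peaks in the same region (chr7:123182776-123184249), at 36.5%, 72.5% and 86.0%, that ended short of the promoter window. With a promoter of 2500 bp to either side, *Sox6* overlapped between the cell types and of the 6 genes only *Sox21* did not. At other *Sox6* start sites, 2 promoter regions were in Sox2-EGFP+ samples alone. These were chr7:122968131-122968734, at 36.1%, 47.5% and 32.9%, and chr7:123174192-123174603, at 88.6% and 92.0% in the 2 longest lists. Of the 9 promoter regions of the 6 genes, 3 were in Sox2-EGFP+ alone (33.3%), against 18.1% of all promoter regions.

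*Sox9*, the SoxE gene, had a region 70.4 kb upstream of its start site (chr11:112572534-112573667). Among the member regions in Sox2-EGFP+ cells alone it had the best mean percent rank. It ranked at 8.26% and 17.0% at E12, at 7.98% and 4.99% at E14.5 and at 8.64% and 17.3% at E16. No Sox2-EGFP- list had a peak there, though the lists leave out peaks called in only 1 sample of a cell type. The mean over the 6 samples was 10.7%, and its fold enrichment was 5.72 to 8.49. Only 2 of the 163 regions were listed in all 6 Sox2-EGFP+ lists and no Sox2-EGFP- list, this one and that of *Sox5*, against 0.777% of all regions.

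The promoter and 3 distal regions of *Sox9* had peaks in both cell types. The promoter (chr11:112643232-112644430) had no E12 peak and ranked at 29.4%, 46.9%, 19.5% and 21.9% in later Sox2-EGFP+ samples and at 45.9%, 44.8% and 42.0% in Sox2-EGFP- samples. The groups overlapped through E14.5 replicate 2 (means 29.5 ± 12.4 and 44.2 ± 2.01, exact permutation p = 0.143, adjusted 0.453). By place they overlapped too, at peaks 19522, 10775, 7670 and 14455 against 10697, 10678 and 10037. On average the Sox2-EGFP- samples then stood higher. A region 85.4 kb downstream (chr11:112731031-112732141) ranked at 7.52%, 24.4%, 26.0% and 14.3% against 27.5%, 32.4% and 28.7%, and one 381 kb downstream (chr11:113026276-113027142) at 41.5% or nearer the top against 42.9%, 49.4% and 81.7%. By place both overlapped. The third, 26.5 kb downstream (chr11:112671803-112673025), ranked at 37.7%, 67.0% and 36.2% in 3 later Sox2-EGFP+ samples and was absent in E14.5 replicate 2. In Sox2-EGFP- samples it ranked at 54.1%, 47.8% and 53.8%, with overlap by percent. By place, peaks 11407 to 12865 of the Sox2-EGFP- lists stood above peaks 23858 to 26350 of those Sox2-EGFP+ lists.

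Over the members, 4 regions had a peak in all 9 samples, against 6.79% of all regions: the promoters of *Sox11* and *Sox21* and the distal regions of *Sox4* and *Sox5* named above. A peak in all 7 samples of E14.5 and E16 was found in 11 regions. In 7 of these every Sox2-EGFP+ sample ranked higher by percent, against 16.4% of all such regions, and in 0 of them every Sox2-EGFP- sample did, against 0.363%. By place the count was 3, namely the *Sox21* promoter and 2 regions of *Sox5* (110 kb and 54.9 kb), against 5.03% of all such regions, and in 0 every Sox2-EGFP- sample stood higher, against 8.21%. Of the 7 higher by percent, all but the *Sox21* promoter were distal, while those of the 11 that overlapped by percent were all promoter regions. Over all genes, 12575 of the 20391 regions with peaks in both cell types were promoter regions. These shares were not compared for distal regions alone.

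The number of peaks near each gene among the 20000 highest of a list gave a comparison at equal list length. In the order E14.5 replicates 1 and 2 and E16 replicates 1 and 2, *Sox6* had 7, 8, 6 and 6 in Sox2-EGFP+ cells, and in the E14.5 and the E16 Sox2-EGFP- samples 3, 2 and 0. *Sox4* had 10, 7, 7 and 9 against 5, 5 and 3, and *Sox5* 7, 7, 7 and 6 against 5, 3 and 1. *Sox9* had 8, 7, 6 and 6 against 5, 5 and 4.

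In these 4 genes every Sox2-EGFP+ sample had more than any Sox2-EGFP- sample, which was so in 5.22% of the 15665 genes tested. The median gene with a region had only 2 regions, where these 4 genes had 31 to 40. Genes with a like number of regions were not compared. With the 10000 highest peaks these 4 genes overlapped (exact permutation p = 0.171 for *Sox5* and *Sox6*) and of the 6 genes only *Sox21* did not. In the 6 samples whose title and tag name the same cells, E12 included, 0 of the 6 genes separated at the 7500 highest peaks, while with 20000 at E14.5 the order held for the 4 genes in 2 samples against 1. *Sox11* (3, 5, 3 and 5 against 3, 2 and 2) and *Sox21* (2, 1, 2 and 1 against 2, 1 and 1) overlapped. The mean differences were 5.08 for *Sox6*, 3.92 for *Sox4*, 3.75 for *Sox5*, 2.08 for *Sox9*, 1.67 for *Sox11* and 0.167 for *Sox21*. The exact permutation p was 0.0286 for the first 4 genes, 0.171 for *Sox11* and 1.00 for *Sox21*, and after Benjamini-Hochberg adjustment over 15665 genes 0.339, 0.717 and 1.00.

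None of the genes tested passed an adjusted p of 0.05, with 1321 of 15665 (8.43%) under 0.05 before adjustment by the exact permutation test, and for promoters 0 after and 1378 of 14276 (9.65%) before. In sequencing batch 2 alone (3 Sox2-EGFP+ and 2 Sox2-EGFP- samples) the differences were 5.50, 4.67, 3.67 and 2.50 in the same order of the first 4 genes. Batch 1 held 1 sample of each cell type. The counts depended on distal peaks. Within 100 kb of a start site, 2 of the 6 genes had groups without overlap, and the *Sox4* difference was -0.167. With start sites of noncoding transcripts added, which take up distal peaks, 2 genes did so, and *Sox4* and *Sox9* differed by -0.667 and -0.333.

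**Figure D5:**
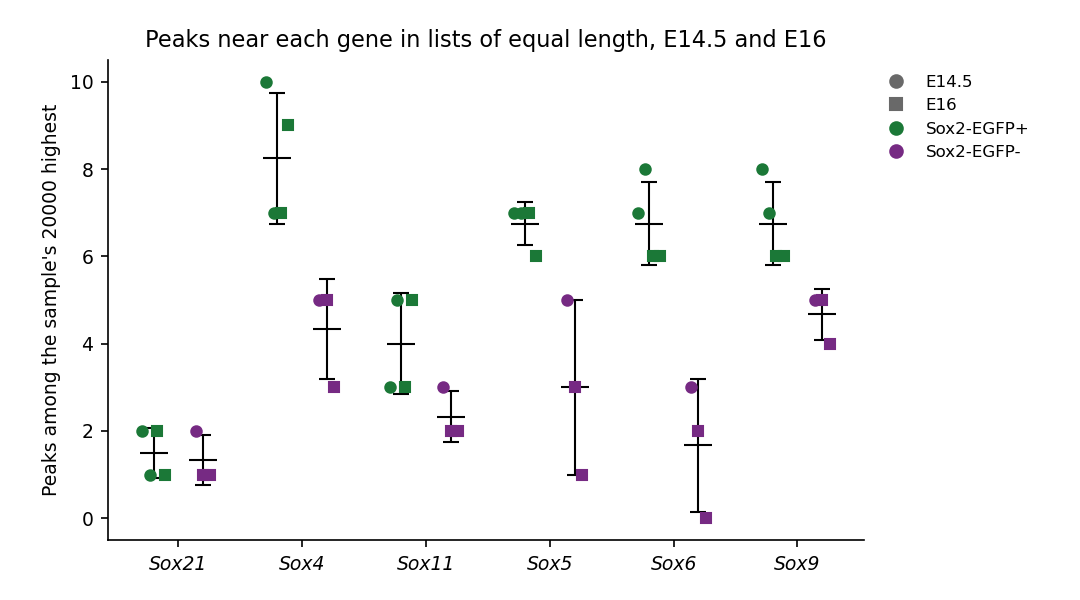
Number of peaks nearest each gene among the 20000 highest of a sample's list (y axis), for the 4 Sox2-EGFP+ (green) and 3 Sox2-EGFP- (purple) samples of E14.5 (circles) and E16 (squares); bars give mean and SD. Groups do not overlap for *Sox4*, *Sox5*, *Sox6* and *Sox9*, where means are 6.75 to 8.25 and 1.67 to 4.67.

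Regions near the 6 genes were mostly listed after E12. Of 156 regions with a Sox2-EGFP+ peak, 21 (13.5%) had one at E12, against 21.6% of all regions with a Sox2-EGFP+ peak. All 156 had one at E14.5 and 152 at E16, and nearly all regions did over all genes (64829 and 64261 of 65452). By gene those with an E12 peak were 8 of 33 for *Sox4*, 6 of 39 for *Sox5*, 1 of 31 for *Sox6*, 3 of 31 for *Sox9*, 2 of 19 for *Sox11* and 1 of 3 for *Sox21*. The E12 lists, of 13817 and 7577 peaks, were the shortest, and a peak missing there was not taken as closed chromatin. In these lists 58.1% and 65.7% of peaks overlapped a promoter, whereas 154 of the 163 member regions overlapped none. The share with an E12 peak was not compared for regions outside promoters alone.

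In the 7500 highest peaks of each Sox2-EGFP+ list, a depth that every list reaches, E14.5 and E16 as 1 group overlapped E12. The 6 genes together had 10 and 10 peaks at E12, 8 and 12 at E14.5 and 5 and 7 at E16, where both samples had fewer than the others. Of these *Sox5* had 3 and 3 at E12 and 3, 4, 1 and 1 later, *Sox4* 2 and 4 and then 3, 3, 1 and 2, and *Sox6* none at E12 and 0, 1, 0 and 2 later. The difference between stages was -0.750 to 0.750 peaks a gene, each gene overlapped between E12 and the later stages together, and the exact permutation p was 0.533 to 1.00 (adjusted 1.00 for each), where 0.0667 is the smallest that 2 against 4 samples can give.

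Motif words were counted in 150 bp to each side of the summits. A SOX word stood in 80 of the 154 member regions outside promoters (51.9%), against 45.9% of all such regions, a GATA word in 33 (21.4%, against 15.5%) and a TEAD word in 39 (25.3%, against 20.4%). GRHL (3.90% and 3.04%) and EBF words (14.9% and 14.7%) were near the shares over all regions, the CTCF motif stood in 9 (5.84%, against 14.6%), and RFX in none (0.197%). Words that overlap were counted once for each motif.

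The genes differed among themselves in these words. SOX words stood in 25 of 38 *Sox5*, 18 of 28 *Sox6* and 14 of 21 *Sox11* regions outside promoters (65.8%, 64.3% and 66.7%), and in 11 of 33 *Sox4* and 12 of 31 *Sox9* regions (33.3% and 38.7%). GC content moved with the SOX words: its median was 48.2%, 47.3% and 47.5% for the first 3 genes and 50.8% and 52.5% for the other two, against 50.5% for all such regions. No test was made of these shares.

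The wider Sox family gives the setting. Of 13 further Sox genes with protein-coding start sites in the annotation, 10 had a promoter peak in at least 1 sample, 7 of them in both cell types and 3 in Sox2-EGFP+ samples alone. *Sox2* itself, which marks the sorted cells, ranked at 92.4% and 67.7% at E12, at 23.3%, 16.9%, 15.8% and 19.6% in later Sox2-EGFP+ samples and at 44.0%, 62.9% and 75.9% in Sox2-EGFP- samples. With *Sox6* and *Sox21* it made 3 of the 19 Sox genes whose promoter ranked higher in every later Sox2-EGFP+ sample, and in none did every Sox2-EGFP- sample rank higher. Of the 14276 genes with a promoter peak in a later sample, the shares were 13.6% and 0.399%. The 19 include *Sox3*, *Sox18* and *Sry*, which had no promoter peak in any list and could not be called. *Sox12*, the third SoxC gene, had a promoter peak in all 9 samples (15.3% to 67.4% and 29.4% to 45.7%), and *Sox10*, of glia and the otic vesicle, only in 4 Sox2-EGFP+ samples at 68.9% to 81.8%.

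Across the 9 samples, peaks per 10000 listed moved together in *Sox6* and *Sox9*. Among 89 genes with a mean of at least 10 peaks a list, each was 1 of the 2 most like the other (Pearson r = 0.965, n = 9), beside 2610203C20Rik, which was the most like *Sox6* (0.976) and the second for *Sox9* (0.946). *Sox6* had 0.724 and 0 at E12, 4.67, 3.92, 3.82 and 4.71 later, and 1.29, 0.839 and 1.26 in Sox2-EGFP- cells. *Sox9* had 2.17 and 1.32, then 4.82, 3.48, 3.82 and 4.86, and 2.15, 2.52 and 2.09. *Sox4* was most like Camta1 (0.953) and Nrxn3 (0.924), and *Sox5* most like Kirrel3 (0.946) and Tiam1 (0.927), while *Sox11* and *Sox21* had too few peaks to compare. These values share their lists and list lengths and are a description.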

How the data were processed

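The data were 9 ATAC-seq peak lists. According to the study's methods, reads were trimmed (Trim Galore) and mapped to mm9 (Bowtie2), and filtered with Picard and SAMtools. The authors called peaks per sample with MACS2 and retained those replicated in a further sample of the cell type, so sharing within a cell type is partly built in. The deposited fold enrichment is a ratio of signal to local background, made by the authors within each sample. The deposited −log10 p and −log10 q values come from the authors' MACS2 runs, and the deposited score was not used. The lists carry no reads, so no test of reads was made. The study reports the number of reads and the share of reads in peaks for each sample. Neither was used here, and ranks and counts were not adjusted for them. List length did not follow the number of reads: the E14.5 Sox2-EGFP- sample had the most reads and a list of 23302 peaks.

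Start sites came from 51720 protein-coding transcripts of GENCODE vM1, on mm9 (NCBIM37). Peaks with the same nearest gene and at most 100 bp apart were merged. Ranks use −log10 p. Cell types (E14.5 and E16) and stages were compared by two-sided exact permutation over samples for every gene, with Benjamini-Hochberg adjustment, in Python 3.11.15, NumPy 2.4.6 and SciPy 1.17.1. Tests, merging (against bedtools 2.31.1) and the motif search were tested on simulated data. Sox2-EGFP+ replicates are separate litters. For Sox2-EGFP- samples no source used here says so, and p-values then measure only the spread between these samples. Regions named are each promoter region, those listed in all samples of 1 or both cell types, and the best ranked distal regions of each gene, with further ones chosen after their values were seen. Alternatives took other list depths, samples, batches, limits, annotations and rankings, and place in the list was added after seeing the data. The 6 genes and the lists were chosen with earlier results of these data known. The result for 1 further motif is not reported here.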

Additional observations from a re-analysis of the deposited data

Results flagged for a closer look

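The *Sox5* and *Sox11* promoters differed between stages in direction. At E14.5 the *Sox5* promoter ranked lower in both Sox2-EGFP+ samples than in the Sox2-EGFP- sample, by 6.96 percentage points on average, and at E16 higher in every one, with a mean difference of -60.0. For *Sox11* the mean differences were 2.61 at E14.5 and -7.28 at E16. With 1 Sox2-EGFP- sample at E14.5, these differences between stages were not tested.

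A single sample stood apart from the others of its group in 3 of 18 sets of values, where chance gives about 1 in 20 for continuous values. For the whole counts among them, in which most samples tie, that rate was not determined. The *Sox21* promoter ranked at 12.7% in E14.5 Sox2-EGFP+ replicate 1 against 6.24% to 6.73% in the other 3 later Sox2-EGFP+ samples, and *Sox21* accordingly had 0 peaks among the 7500 highest of that list against 1 in the 5 others. *Sox5* had 6 peaks among the 20000 highest in E16 Sox2-EGFP+ replicate 2 and 7 in the other 3.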

How the results depend on the processing

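Of 350 values under alternatives, 290 kept their direction or stayed within 1.5 times, 33 changed direction and 27 counts moved further. Where no other reason is given, the cause was not tested. The 4 genes with more of the 20000 highest peaks in every Sox2-EGFP+ sample became 1 with 10000 peaks (*Sox21*, none of the 4), 2 within 100 kb, 2 with start sites of all transcripts, and 0 both with the 7500 highest in all 9 samples and in the 6 samples whose title and tag agree. They were 4 to 5 with each sample left out in turn. *Sox11* then differed by -0.0833 (10000 peaks), -0.333 (9 samples) and -1.0 (title and tag agree), *Sox4* by -0.167 (100 kb) and -0.667 (all transcripts), *Sox9* by -0.333 (all transcripts), and *Sox21* by -0.764 (all peaks per 20000), -0.167 (batch 2), -0.167 (10000 peaks outside promoters) and 0 to 0.50 with 1 sample left out.

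Replicate numbers are shared across cell types, but at E16, the only stage with both numbers in both cell types, deviations correlated at r = 0.148 over 15925 regions, and no label pairs the samples. The study describes E16 cells of both types as taken in parallel, without tying them to replicate numbers. With a replicate block, 5 genes had more peaks in the Sox2-EGFP+ sample of each of the 3 pairs. In 2 genes the promoter ranked higher in the Sox2-EGFP+ sample of each pair. The blocked peak differences were 3.33 for *Sox4*, 3.67 for *Sox5*, 5.00 for *Sox6*, 1.67 for *Sox9*, 2.00 for *Sox11* and 0 for *Sox21*, and those of promoter rank -4.71, -36.6, -67.5, -14.8, -4.23 and -68.6.

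The 2 promoters that separated the cell types, *Sox6* and *Sox21*, became 1 with all 9 samples, 1 with a promoter of 2500 bp to either side, 6 at E16 alone, and 2 to 4 with each sample left out, the 4 without the E14.5 Sox2-EGFP- sample. The difference turned to 11.7 (*Sox4*) and 8.74 (*Sox9*) with all 9 samples, to 4.84 (*Sox11*) by fold enrichment, and to 21.3 (*Sox4*), 13.2 (*Sox9*) and 8.72 (*Sox11*) by place among the 20000 highest. The 7 of 11 regions higher by percent became 3 by place and 12 of 14 at E16 alone, and 7 to 10 with each sample left out.

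No gene separated the stages at 7500 peaks, also with each sample left out, but 3 were higher in every later sample (*Sox6*, *Sox9*, *Sox11*) with all peaks per 7500, where *Sox21* was lower in every one (-0.419), and 1 was with the 2500 highest outside promoters. The stage difference turned to 0.0774, 0.821, 1.87 and 0.626 (*Sox4*, *Sox5*, *Sox9*, *Sox11*) with all peaks per 7500, and to 0, 0.50, 0.250 and 0 (*Sox5*, *Sox9*, *Sox11*, *Sox21*) outside promoters. It was 0 for *Sox6* at 5000 peaks, and with each sample left out it reached 0.250 for *Sox4*, 0.250 for *Sox9* and 0 for *Sox21*, from -1.75, -0.750 and -0.333.

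The 163 regions became 63 in the 20000 highest (39 in Sox2-EGFP+ alone), 20 in the 7500 highest (14 in Sox2-EGFP+ alone, 3 in both, 3 in Sox2-EGFP- alone), 73 within 100 kb (60, 12 and 1) and 73 with all transcripts (59 and 1 alone), since these settings take fewer peaks or a shorter reach. At −log10 q of 5 or more, 4 were in Sox2-EGFP- alone. Leaving out each sample gave 163 to 166, 137 to 140 of them in Sox2-EGFP+ alone, 19 in both and 7 in Sox2-EGFP- alone.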
